A study of Mus musculus with 12 samples.

Results

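Transcripts of 10 inflammatory cytokine and interleukin-1 (IL-1) family genes were measured by RNA-seq in sorted neutrophils. The genes are Tnf, Il1a, Il1b, Il1rn, Il1r2, Il1rap, Il6, Osm, Il10 and Il23a, and they were chosen by their symbols among the 55335 genes listed in each library. All 10 had a row in the count data. Neutrophils came from 3 groups of 4 libraries, 12 libraries in total, and each library was taken as a separate mouse. PyMT TANs are tumor-associated neutrophils from mammary tumors of mice that carry the polyoma virus middle T transgene (PyMT), which drives tumors of the mammary gland. PyMT-Cxcr2-/- TANs come from mammary tumors of mice with the same transgene that also lack the chemokine receptor Cxcr2, a deletion present in all cells of the animal and not in neutrophils alone. WT BM neutrophils come from the bone marrow of mice with neither change. All 3 groups were on the FVB background, 10 weeks old and housed in an SOPF (specific and opportunistic pathogen free) facility. Bone marrow of Cxcr2-/- mice was not analysed here.

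IL-1α (Il1a) and IL-1β (Il1b) are ligands of the same receptor, Il1r1, which needs the accessory chain Il1rap to signal. Their action is limited by the receptor antagonist Il1rn, which occupies the receptor without signalling, and by the decoy receptor Il1r2, which binds IL-1 without signalling. Tnf and Il6 are inflammatory cytokines, Osm (oncostatin M) is a relative of Il6 that signals through the shared gp130 chain, Il10 restrains inflammatory responses, and Il23a encodes the p19 chain that forms IL-23 together with Il12b. Neutrophils are known as a source of Il1b, Il1rn, Osm and Tnf, and they carry Il1r2 at their surface.

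Libraries held 25032704 to 51351569 counts on genes, and 3 counts, the level that a count of 0 still allows, came to between 0.0584 and 0.1198 CPM. Levels are given in CPM, a gene's counts relative to the library total after scaling with TMM factors, and such limits cover counting error only. Cxcr2 was between 8.82 and 10.0 CPM in the 4 PyMT-Cxcr2-/- libraries and between 1043 and 2252 CPM in the other 8. Each library therefore matched its label for Cxcr2, which does not check the PyMT transgene. Neutrophil markers (10 genes) summed to 91487 to 123991 CPM in WT BM neutrophils, 10738 to 17158 CPM in PyMT TANs and 19417 to 32906 CPM in PyMT-Cxcr2-/- TANs. Ly6g, which encodes the antigen used in the sort, ranged from 474 to 656 CPM in WT BM neutrophils, against 20.3 to 48.0 CPM in PyMT TAN libraries and 106 to 180.3 CPM in those from PyMT-Cxcr2-/- mice. Of the 10 neutrophil markers, 6 were higher in PyMT-Cxcr2-/- TANs than in PyMT TANs, among them Ly6g (log2 fold change 1.81, SE 0.27, adjusted p = 0.011), and the 1 that was lower was Cxcr2 itself. Over all genes tested in this comparison, 1.38% were higher and 0.596% lower. Without PyMT TAN replicate 2, the adjusted p of Ly6g was 0.059. The neutrophil marker sum therefore moved with the comparison of the TAN groups, and its part in the results below was not tested. Macrophage markers (12 genes) summed to 2244 to 5409 CPM in PyMT TANs and 2452 to 5108 CPM in PyMT-Cxcr2-/- TANs, against 256 to 359 CPM in WT BM neutrophils, although the gate left out F4/80+ cells. Adgre1, the gene of F4/80, was between 68.6 and 192 CPM in the 8 TAN libraries and between 8.66 and 12.1 CPM in WT BM neutrophils. In sorted populations such as these, fewer cells of a type and less RNA per cell cannot be told apart.

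**Figure D1:**
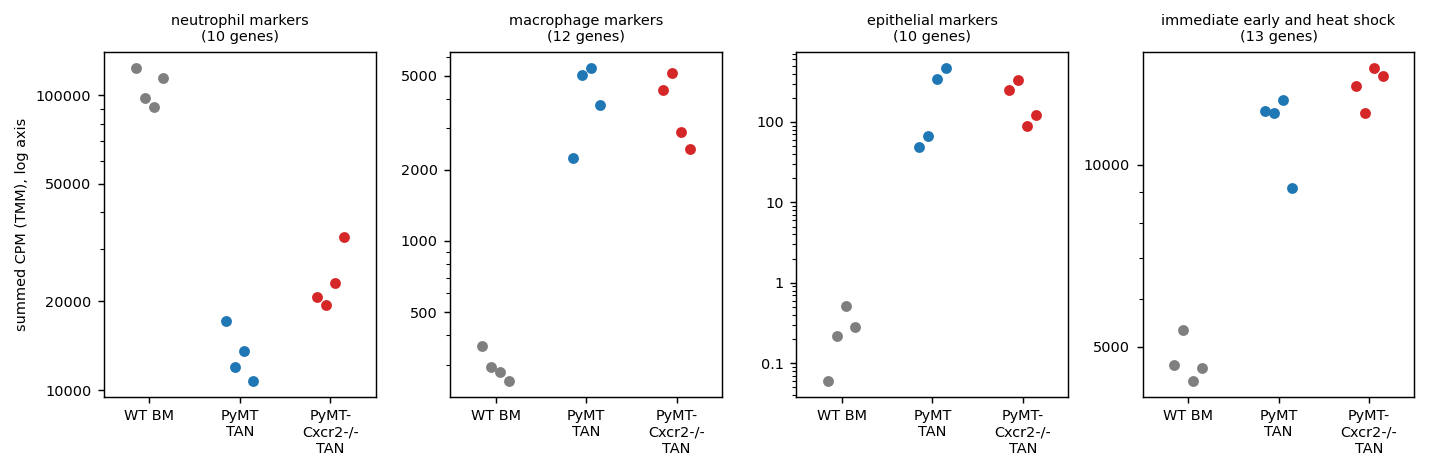
Summed level of 3 marker lists and of the immediate early and heat shock genes in each library (y axis, CPM with TMM factors, log axis; x axis, the 3 groups; 1 point per library). Neutrophil markers are highest in WT BM neutrophils (91487 to 123991 CPM), macrophage and epithelial markers are higher in all TAN libraries than in WT BM neutrophils, and the 2 TAN groups overlap for macrophage markers (2244 to 5409 and 2452 to 5108 CPM).

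The regions just before the transcription start of Tnf, Il1a and Il1b are shown first, because Tnf and Il1a were the 2 members lower in PyMT-Cxcr2-/- TANs and Il1b, the neighbour of Il1a on chromosome 2, was not. Sequences are from RefSeq (build GRCm38.p6), 250 bases ending at the base before the start site, written 5′ to 3′ on the gene's strand. Capitals mark TATAAA and, in Il1a, the AP-1 motif. The Tnf window lies at chr17:35202008-35202257, the Il1a window at chr2:129309973-129310222 and the Il1b window at chr2:129371140-129371389, all on the minus strand.
Tnf: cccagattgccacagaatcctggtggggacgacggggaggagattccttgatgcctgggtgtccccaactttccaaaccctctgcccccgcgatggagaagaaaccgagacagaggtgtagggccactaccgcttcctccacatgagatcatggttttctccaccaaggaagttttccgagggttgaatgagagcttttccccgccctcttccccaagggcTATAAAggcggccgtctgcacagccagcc
Il1a: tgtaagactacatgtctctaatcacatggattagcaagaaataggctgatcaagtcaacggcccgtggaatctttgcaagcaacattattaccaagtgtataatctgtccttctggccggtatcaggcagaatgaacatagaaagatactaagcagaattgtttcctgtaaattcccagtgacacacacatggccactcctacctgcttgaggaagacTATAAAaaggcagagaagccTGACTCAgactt
Il1b: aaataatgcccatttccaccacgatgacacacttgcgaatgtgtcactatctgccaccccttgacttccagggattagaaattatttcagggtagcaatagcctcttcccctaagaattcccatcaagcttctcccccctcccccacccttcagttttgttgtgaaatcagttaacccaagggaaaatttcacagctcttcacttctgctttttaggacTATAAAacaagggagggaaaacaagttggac

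Such windows were given for 7 of the 10 genes, with 3 alternative windows for Il1rn, and none for Osm, Il10 and Il23a. The motifs searched on both strands were TATAAA, the AP-1 motif TGANTCA, the C/EBP motif TTGCNNAA and the kappaB motif GGGRNWYYCC. In these, N is any base, R is A or G, W is A or T, and Y is C or T. The AP-1 motif reads the same on both strands, so that 1 place counts once. TATAAA was present in the windows of Tnf, Il1a and Il1b, between 24 and 32 bases before the start in each, while 12.4% of all 32851 windows of this length hold it. TGANTCA was present in Il1a (6 to 12 bases before the start), in the first of the 3 Il1rn windows and in Il6, against 6.75% of all windows. The kappaB and C/EBP motifs were each found only in the Il6 window, against 3.90% and 9.56% of all windows. No 2 of these matches overlapped. Tnf and Il1a therefore shared TATAAA with Il1b, and no motif searched was present in Tnf and Il1a but missing from Il1b.

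The first comparison asked which of the 10 transcripts differ between PyMT-Cxcr2-/- TANs and PyMT TANs, that is, without and with Cxcr2 in the same tumor model. The paper reports heavier tumors in PyMT-Cxcr2-/- mice, with a higher share of neutrophils and a lower share of macrophages among immune cells. Loss of Cxcr2 in neutrophils and these differences of the tumors cannot be told apart here. Tnf and Il1a were lower in PyMT-Cxcr2-/- TANs, Osm was higher, and the other 7, among them Il1b, Il1rn, Il1r2 and Il10, did not pass the thresholds. Genes were tested with edgeR's quasi-likelihood test on counts, and the thresholds were a Benjamini-Hochberg adjusted p under 0.05 over all genes tested and a fold change of at least 1.5. All 10 members were tested, and 3 passed (1 higher and 2 lower), beside 1.98% of all 18463 genes tested (1.38% higher and 0.596% lower). The groups did not overlap for 5 members, Osm in the higher direction (6.33% of all genes) and Tnf, Il1a, Il1rap and Il23a in the lower (5.70% of all genes). The median log2 fold change of the 10 members was -0.23, beside -0.07 for all genes. These 3 calls depended on the libraries used: none of the 3 remained without PyMT TAN replicate 2 or without PyMT-Cxcr2-/- TAN replicate 3, when 23 and 83 genes in all passed instead of 365.

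**Figure D2:**
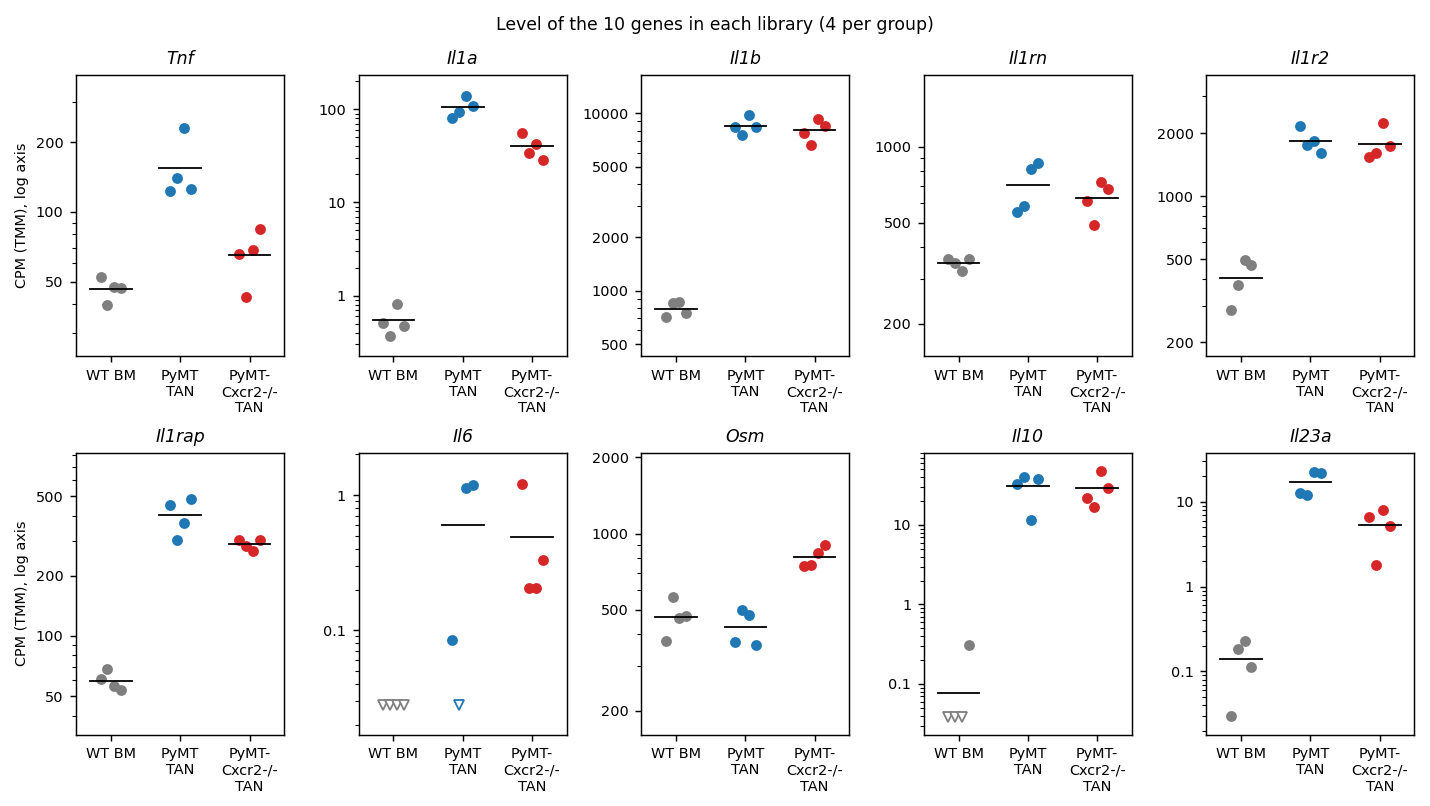
Level of each of the 10 genes in each library (y axis, CPM with TMM factors, log axis, scaled per gene; x axis, the 3 groups). Points are libraries, lines are group means, and open triangles near the bottom are libraries with a count of 0. The groups of TANs are apart for Tnf, Il1a, Il1rap, Osm and Il23a and overlap for Il1b, Il1rn, Il1r2, Il6 and Il10.

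Tnf (chr17:35199381-35202007 in mm10, minus strand) encodes tumor necrosis factor. In PyMT TANs replicates 1 to 4 it was at 123, 140.2, 231 and 126 CPM, in PyMT-Cxcr2-/- TANs at 65.7, 43.0, 68.3 and 84.2 CPM, and in WT BM neutrophils at 52.3, 39.6, 47.4 and 46.9 CPM. Every PyMT TAN library was above every PyMT-Cxcr2-/- library, PyMT replicate 3 stood above the other 3 of its group, and PyMT-Cxcr2-/- replicate 2 lay within the range of bone marrow. The log2 fold change between the TAN groups was -1.25 (SE 0.24, n = 4 per group, adjusted p = 0.026), from a mean of 155 ± 51.1 CPM (SD) to 65.3 ± 17.0 CPM. Without PyMT replicate 3 it was still past the thresholds, whereas 4 of the 8 fits that left out a library, with an adjusted p of up to 0.091, and a test against a 1.2-fold change (adjusted p = 0.0526) did not call it. Macrophage marker sums of the TAN groups overlapped (2244 to 5409 and 2452 to 5108 CPM), and their part in the Tnf difference was not tested. Of the 11 macrophage markers tested between the TAN groups, 0 passed the thresholds in either direction, beside 1.98% of all genes tested.

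Il1a (chr2:129299610-129309972, minus strand) encodes IL-1α, which is active without being cut and can be released from damaged cells. It was at 81.0, 94.2, 139 and 109 CPM in PyMT TANs, at 56.2, 33.9, 42.8 and 28.4 CPM in PyMT-Cxcr2-/- TANs, and at 0.510, 0.371, 0.802 and 0.476 CPM in WT BM neutrophils. None of the 3 groups overlapped with another. The log2 fold change between the TAN groups was -1.39 (SE 0.23, adjusted p = 0.015), which is 2.63-fold lower in PyMT-Cxcr2-/- TANs. Of the 8 fits that left out a library, 6 called it, and its adjusted p was 0.058 without PyMT replicate 2 and 0.057 without PyMT-Cxcr2-/- replicate 3. On the opposite strand, Gm14023 shares 222 exonic bases with Il1a. It was also lower in PyMT-Cxcr2-/- TANs, with a log2 fold change of -1.23 (SE 0.19, adjusted p = 0.012). The strand setting of the counting is not given in the sources used here, so reads from the 2 genes cannot be told apart where they overlap.

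Osm (chr11:4236420-4241026, plus strand) encodes oncostatin M. In WT BM neutrophils it was at 378, 562, 466 and 471 CPM, in PyMT TANs at 372, 499, 477 and 364 CPM, and in PyMT-Cxcr2-/- TANs at 746, 749.5, 837 and 903 CPM. All 4 PyMT-Cxcr2-/- libraries were above all 8 others, and PyMT TANs overlapped with bone marrow. Osm was 1.89-fold higher in PyMT-Cxcr2-/- TANs than in PyMT TANs (log2 fold change 0.92, SE 0.15, adjusted p = 0.015). It was called in 6 of the 8 fits that left out a library, with an adjusted p of 0.0502 without PyMT replicate 2 and 0.0543 without PyMT-Cxcr2-/- replicate 3. Immediate early and heat shock genes (13 genes), which are known to rise during tissue dissociation, summed to 9142 to 12788 CPM in PyMT TANs and 12171 to 14454 CPM in PyMT-Cxcr2-/- TANs. None of these 13 passed the thresholds between the TAN groups, beside 1.98% of all genes tested. Their part in the Osm difference was not tested.

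Il23a (chr10:128296139-128298752, minus strand) had the largest difference in size among the 10 members but did not pass the adjusted p threshold. It was at 12.8, 12, 22.3 and 21.7 CPM in PyMT TANs and at 6.63, 1.82, 7.97 and 5.14 CPM in PyMT-Cxcr2-/- TANs. All 4 PyMT-Cxcr2-/- libraries were below all 4 PyMT libraries, and PyMT-Cxcr2-/- replicate 2 was the lowest. The log2 fold change was -1.67 (SE 0.40, adjusted p = 0.058). With DESeq2 (adjusted p = 0.0022), with all 12 libraries in one fit (0.026) and without the filter on low counts (0.026), it passed. Il12b, the other chain of IL-23, had a count of 0 in all 4 WT BM libraries, while it ranged from 0.134 to 1.5 CPM in PyMT TANs and from 0.310 to 1.21 CPM in those without Cxcr2.

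Il1rap (chr16:26581704-26730117, plus strand), the accessory chain of the IL-1 receptor, was at 450.2, 302, 367 and 485 CPM in PyMT TANs and at 302, 280.4, 265 and 300.5 CPM in PyMT-Cxcr2-/- TANs. The groups did not overlap, although the highest PyMT-Cxcr2-/- library and the lowest PyMT library both round to 302 CPM. The log2 fold change was -0.49 (SE 0.16, adjusted p = 0.15).

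Il1b, Il1rn and Il1r2 were at 489 CPM or more in every TAN library, and their differences between the TAN groups were no larger than their standard errors. Il1b (chr2:129364570-129371139, minus strand) was at 8376, 7536, 9737 and 8333 CPM in PyMT TANs and at 7735, 6656, 9353 and 8458 CPM in PyMT-Cxcr2-/- TANs, with a log2 fold change of -0.08 (SE 0.15). Il1rn (chr2:24336853-24351494, plus strand) was at 549.7, 585, 817 and 865 CPM in PyMT TANs and at 607, 489, 727 and 682 CPM in PyMT-Cxcr2-/- TANs, with a log2 fold change of -0.17 (SE 0.19). Il1r2 (chr1:40074079-40125231, plus strand) was at 2152, 1761, 1830.3 and 1601 CPM in PyMT TANs and at 1529, 1604, 2238 and 1734 CPM in PyMT-Cxcr2-/- TANs, with a log2 fold change of -0.05 (SE 0.16). For all 3 genes the groups overlapped, and their adjusted p was between 0.77 and 0.94. Il1bos, a gene on the strand opposite to Il1b that shares 25 exonic bases with it, was lower in PyMT-Cxcr2-/- TANs (log2 fold change -1.05, SE 0.17, adjusted p = 0.014), whereas Il1b did not pass; the difference between these 2 fold changes was not tested. Gm37347 and Gm16894 overlap the span of Il1r2 with 0 shared exonic bases, and neither passed between the TAN groups.

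Il10 (chr1:131019845-131024974, plus strand) was at 33.2, 40.1, 11.7 and 37.7 CPM in PyMT TANs and at 21.8, 16.8, 47.5 and 29.0 CPM in PyMT-Cxcr2-/- TANs. The spread within each group (SD 13 and 13.5 CPM) was larger than the difference between the group means of 30.7 and 28.8 CPM. PyMT replicate 3, which had the highest Tnf of all 12 libraries, had the lowest Il10 of the 8 TAN libraries, and the highest Il10 was in PyMT-Cxcr2-/- replicate 3. The macrophage marker sums of replicates 1 to 4 were 2244, 5030.2, 5409 and 3748 CPM in PyMT TANs, and 4364, 5108, 2901 and 2452 CPM in PyMT-Cxcr2-/- TANs, and their part in the Il10 level was not tested.

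Il6 (chr5:30013114-30019981, plus strand) was near the limit of detection, with 4, 0, 33 and 57 counts in PyMT TANs, 64, 8, 10 and 16 counts in PyMT-Cxcr2-/- TANs and 0 counts in each WT BM library. These are 0.0843, 0, 1.12 and 1.19 CPM in PyMT TANs and 1.21, 0.205, 0.206 and 0.329 CPM in PyMT-Cxcr2-/- TANs. In each group the libraries differed from each other by more than the groups did, and a difference was not detectable at this depth (log2 fold change -0.29, SE 1.22, adjusted p = 0.96). Epithelial markers (10 genes) summed to 49.3, 66.7, 338 and 475 CPM in PyMT TANs and to 253, 335, 88.1 and 122 CPM in PyMT-Cxcr2-/- TANs. The 3 libraries above 1 CPM of Il6 (PyMT replicates 3 and 4 and PyMT-Cxcr2-/- replicate 1) were among the 4 highest for epithelial markers. The other of these 4, PyMT-Cxcr2-/- replicate 2 (335 CPM), had 0.205 CPM of Il6. Fibroblast markers (8 genes) had their largest sums, 45.2 and 42.2 CPM, in PyMT-Cxcr2-/- replicates 3 and 2, where Il6 was 0.206 and 0.205 CPM. For the 3 libraries with more Il6, fibroblast sums were 24.9, 14.6 and 27.8 CPM, in the order named above. The part of either marker list in the Il6 level was not tested.

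**Figure D3:**
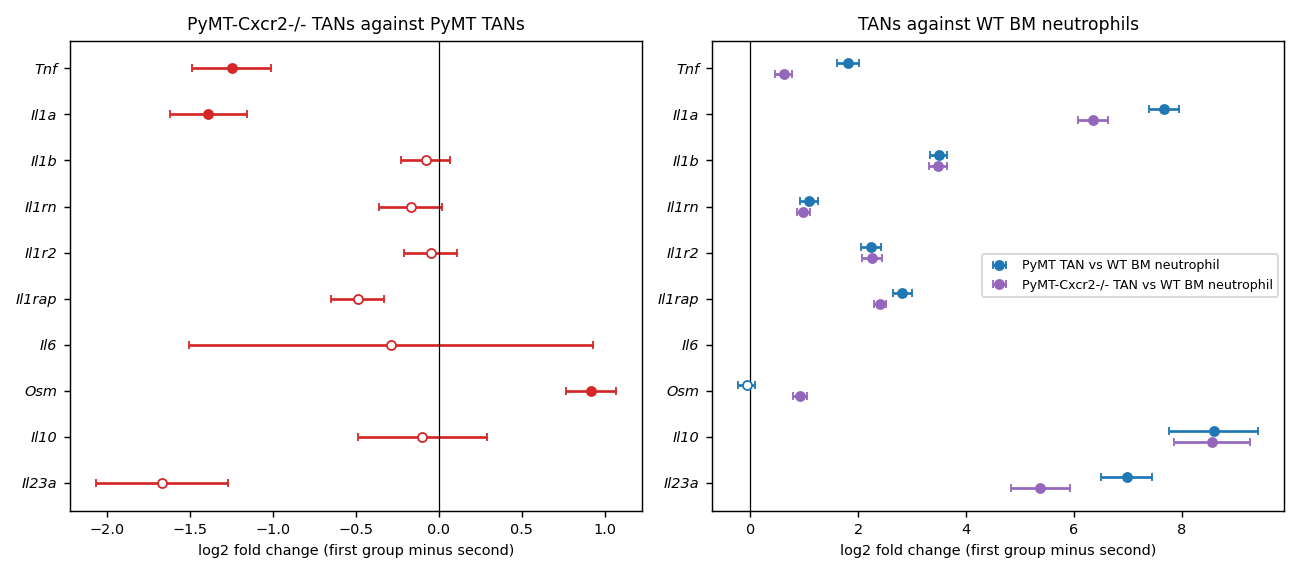
Log2 fold change of each gene (x axis, points, with the standard error as bars) between the TAN groups (left) and between each TAN group and WT BM neutrophils (right). Filled points passed the thresholds and open points did not, and Il6 was not tested against WT BM neutrophils. On the left, only Tnf, Il1a and Osm are filled, and Il23a has the lowest value (-1.67).

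**Figure D4:**
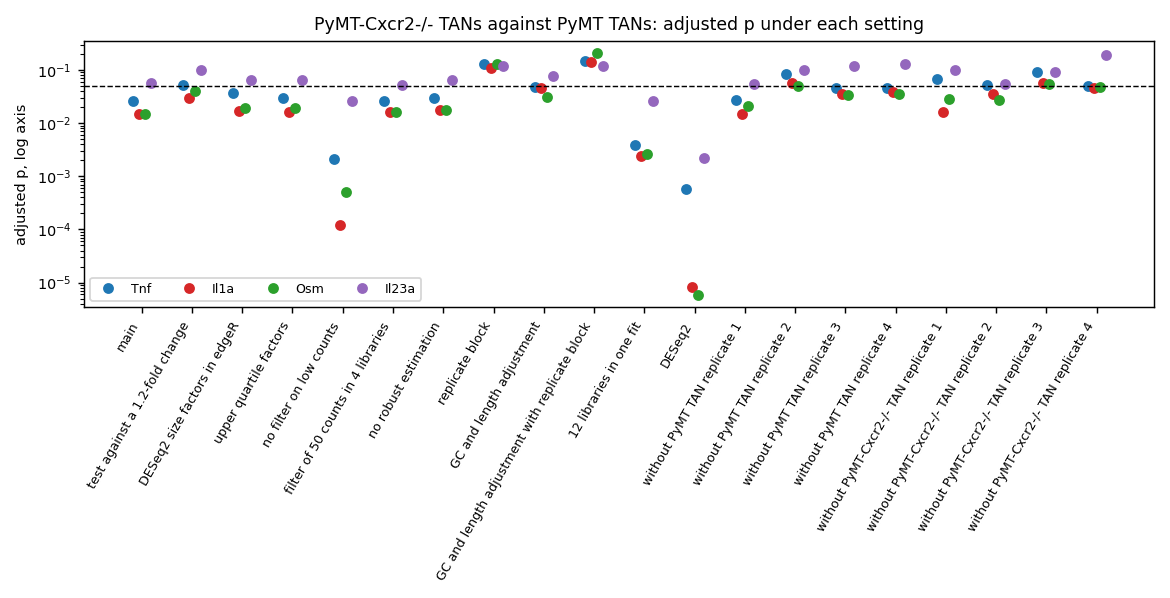
Adjusted p (y axis, log axis) of Tnf, Il1a, Osm and Il23a between the TAN groups in each fit that gives its own adjusted p (x axis); the dashed line marks 0.05. Tnf, Il1a and Osm lie above the line in both fits with a replicate block and in the fits without PyMT TAN replicate 2 or without PyMT-Cxcr2-/- TAN replicate 3, whereas Il23a lies below it in 3 fits.

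Other genes of these pathways were compared between the TAN groups in the same fit, with gene lists chosen with earlier results of these data known. Among the remaining IL-1 family, 1 of 11 genes tested was higher and 0 were lower. This was Il1f9, which encodes the agonist IL-36γ, at 146 to 208 CPM in PyMT TANs and 278 to 524 CPM in PyMT-Cxcr2-/- TANs (log2 fold change 1.06, SE 0.20, adjusted p = 0.025). Its call was kept in 3 of the 8 fits that left out a library. Of 14 adaptors and kinases below the IL-1 receptor, 13 genes of the TNF pathway and 10 regulators of cytokine mRNAs (proteins that bind AU-rich or stem-loop elements, and the kinase Mapkapk2, which acts on such proteins), 0 passed in either direction. Of 13 genes of IL-1 maturation and release, 1 was lower, Casp8, a protease that can cut pro-IL-1β (log2 fold change -0.69, SE 0.15, adjusted p = 0.039). Of 12 genes of the IL-6 family, its receptors and its signalling, 1 was lower, Jak2, a kinase used by cytokine receptors (log2 fold change -0.72, SE 0.15, adjusted p = 0.036). Neither Casp8 nor Jak2 passed in any of the 8 fits that left out a library. Over all 18463 genes tested, 1.98% passed (1.38% higher and 0.596% lower), so counts of 0 or 1 in lists this short tell little. The medians of these 6 lists lay between -0.03 and 0.17, beside -0.07 for all genes.

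The receptors for these cytokines were read in the same libraries. Il1r1, the signalling receptor of IL-1, was low in all groups, at 2.02 to 3.82 CPM in PyMT TANs, 0.770 to 1.80 CPM in PyMT-Cxcr2-/- TANs and 1.05 to 2.52 CPM in WT BM neutrophils. The TAN groups did not overlap for Il1r1, which did not pass (log2 fold change -1.03, SE 0.45, adjusted p = 0.3). The decoy Il1r2 was at 286 CPM or more in all 12 libraries. Osmr, a receptor chain for oncostatin M, ranged from 1.69 to 25.2 CPM in PyMT TANs and from 4.31 to 14.2 CPM in PyMT-Cxcr2-/- TANs, and had 0 to 2 counts in WT BM libraries. By contrast, Il6ra was at 232 to 407 CPM in PyMT TANs, 295 to 426 CPM in PyMT-Cxcr2-/- TANs and 231 to 346 CPM in WT BM neutrophils. Tnfrsf1a, a receptor of Tnf, was at 290.3 to 444 CPM in PyMT TANs and 414 to 526 CPM in PyMT-Cxcr2-/- TANs. None of these receptors passed the thresholds between the TAN groups, beside 1.98% of all genes tested.

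The comparisons with bone marrow asked how the 10 transcripts differ between neutrophils in tumors and in normal bone marrow. In PyMT TANs, 8 of the 9 members tested were higher than in WT BM neutrophils, and Osm was not past the thresholds. In PyMT-Cxcr2-/- TANs, all 9 members tested were higher, Osm included. The largest differences were in Il10, Il1a and Il23a, which were close to 0 in bone marrow. The shares past the thresholds among all genes were 53.3% (30.1% higher and 23.2% lower) for PyMT TANs and 59.5% (34.4% higher and 25.1% lower) for PyMT-Cxcr2-/- TANs. The groups did not overlap for 8 members in PyMT TANs, beside 28.8% of all genes tested in the higher direction and 29.5% in the lower. For PyMT-Cxcr2-/- TANs the groups did not overlap for 9 of the 10 members, beside 32.2% and 33.8% of all genes tested. These 9 include Il6, which was not tested and has no part in these shares, and leave out Tnf, which overlapped. The median log2 fold change of the members tested was 2.82 in PyMT TANs and 2.40 in PyMT-Cxcr2-/- TANs, beside 0.09 over all genes in each comparison. Both comparisons use the same 4 WT BM libraries. Tumors were digested with enzymes and bone marrow was not, so tissue, transgene and dissociation cannot be told apart here, and 10 of the 13 immediate early and heat shock genes were higher in PyMT TANs and 11 of 13 in PyMT-Cxcr2-/- TANs. Likewise all 11 macrophage markers tested were higher in each TAN group, and their part in the differences below was not tested.

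Of the ligands, Il1b was at 713, 851, 862 and 749 CPM in WT BM neutrophils, below all TAN libraries. Its log2 fold change was 3.49 (SE 0.15, adjusted p = 3.1e-08) in PyMT TANs and 3.48 (SE 0.16, adjusted p = 1.3e-09) in PyMT-Cxcr2-/- TANs. Il1a differed by a log2 fold change of 7.67 (SE 0.28, adjusted p = 2.0e-08) in PyMT TANs and 6.35 (SE 0.28, adjusted p = 1.5e-09) in PyMT-Cxcr2-/- TANs. Both IL-1 ligands were therefore higher in each TAN group than in bone marrow. Tnf was 3.50-fold higher in PyMT TANs (log2 fold change 1.81, SE 0.21, adjusted p = 2.3e-05). In PyMT-Cxcr2-/- TANs the Tnf log2 fold change was 0.62 (SE 0.16, adjusted p = 0.004), the groups overlapped, and the call was lost without WT BM replicate 2 (0.54), without PyMT-Cxcr2-/- TAN replicate 4 (0.48) and with all 12 libraries in one fit (0.49, adjusted p = 0.065).

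The inhibitors and receptor chains were higher in TANs as well. Il1rn was at 361, 347, 324 and 360.3 CPM in WT BM neutrophils, and its log2 fold change was 1.09 (SE 0.17, adjusted p = 1.8e-04) in PyMT TANs and 0.98 (SE 0.12, adjusted p = 1.1e-05) in PyMT-Cxcr2-/- TANs. Il1r2 was at 286, 377, 496 and 466 CPM in WT BM neutrophils, and it was 4.73-fold higher in PyMT TANs and 4.80-fold higher in PyMT-Cxcr2-/- TANs. For Il1rap, at 60.6, 68.3, 56.3 and 53.5 CPM in WT BM neutrophils, the factors were 7.04 and 5.29. No TAN library overlapped with a WT BM library for these 3 genes. Osm was 1.89-fold higher in PyMT-Cxcr2-/- TANs (log2 fold change 0.92, SE 0.13, adjusted p = 3.0e-05) and differed by a log2 fold change of -0.07 (SE 0.16, adjusted p = 0.74) in PyMT TANs, a direction that turned with other normalization factors or a stricter filter.

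Il23a had 1 to 8 counts in each WT BM library (0.0300, 0.186, 0.229 and 0.112 CPM). It was higher by a log2 fold change of 6.98 (SE 0.47, adjusted p = 4.9e-07) in PyMT TANs and 5.38 (SE 0.54, adjusted p = 1.5e-06) in PyMT-Cxcr2-/- TANs. Il10 had a count of 0 in WT BM replicates 1 to 3 and 11 counts (0.308 CPM) in replicate 4, and it passed the thresholds in both comparisons (adjusted p = 6.3e-06 and 1.7e-06). For a lower bound, 3 counts were taken for each of the 3 WT BM libraries at 0 and the measured level for replicate 4. The mean of Il10 was then at least 213-fold higher in PyMT TANs and at least 199.5-fold higher in PyMT-Cxcr2-/- TANs. Without WT BM replicate 4 these bounds were 342 and 321. When a TAN library was left out they were 191 to 256 in PyMT TANs and 156 to 227 in PyMT-Cxcr2-/- TANs. Against 3 counts in all 4 WT BM libraries (0.0882 CPM), the mean of Il6 was at least 6.79-fold higher in PyMT TANs and at least 5.52-fold higher in PyMT-Cxcr2-/- TANs. In PyMT TANs, replicate 2 was itself at 0 and replicate 1 (0.0843 CPM) lay under that level. The PyMT mean therefore rests on replicates 3 and 4 (1.12 and 1.19 CPM), and its bound does not hold for each library. The second bound was 2.80 without PyMT-Cxcr2-/- replicate 1, the library with the most Il6 in its group, and the first was 4.57 to 9.05 when a PyMT library was left out. Il6 did not pass the filter on low counts in these comparisons and has no test there. It was called in both with DESeq2 (adjusted p = 0.0023 and 2.4e-06), without the filter, and with all 12 libraries in one fit.

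To set agonist against antagonist within a library, the log2 ratio of Il1rn to Il1b was taken from CPM per kilobase of exon (RPKM). It was -5.47, -5.22, -5.11 and -4.81 in PyMT TANs, -5.21, -5.31, -5.22 and -5.17 in PyMT-Cxcr2-/- TANs, and -2.52, -2.83, -2.95 and -2.59 in WT BM neutrophils. On a linear scale this is 6.66 ± 0.929 Il1b per Il1rn (SD, n = 4) in WT BM neutrophils, 36.0 ± 6.73 in PyMT TANs and 37.5 ± 1.5 in PyMT-Cxcr2-/- TANs. Exon length was the union over all annotated transcripts of a gene, 5535 bases for Il1rn and 1907 for Il1b. The size of these ratios depends on that choice, so they are not ratios of transcript numbers. The 2 TAN groups overlapped and neither overlapped with bone marrow. Il1b per Il1a, on the same scale, was 1112 to 2374 in WT BM neutrophils, 72.5 to 107 in PyMT TANs and 143 to 308 in PyMT-Cxcr2-/- TANs, with no overlap between any 2 groups.

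**Figure D5:**
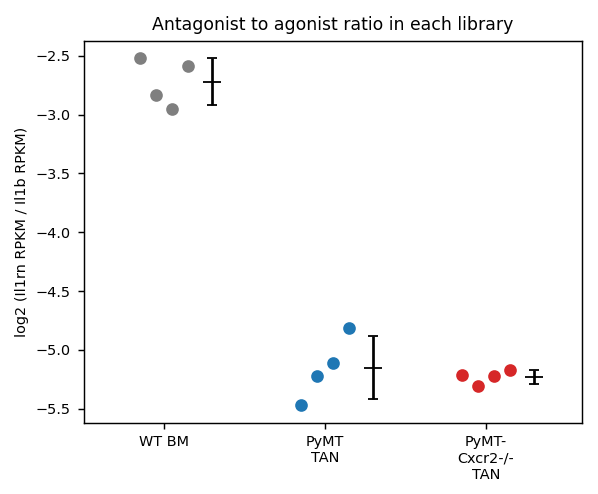
Log2 ratio of Il1rn to Il1b (y axis, RPKM in the same library) in the 3 groups (x axis). Coloured points are libraries and black bars are the mean with the SD, at -2.72 ± 0.20 in WT BM neutrophils, -5.15 ± 0.27 in PyMT TANs and -5.23 ± 0.06 in PyMT-Cxcr2-/- TANs.

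Among 21899 protein-coding genes ordered by mean RPKM, Il1b was the 3rd in PyMT TANs (4455 ± 479 RPKM), the 4th in PyMT-Cxcr2-/- TANs (4222 ± 598 RPKM) and at rank 77 in WT BM neutrophils (416 ± 38.9 RPKM). Its reads were 0.903% to 1.14% of all gene counts in PyMT TANs and 0.0537% to 0.0765% in WT BM neutrophils. Among the 10 members, the order by RPKM in PyMT TANs was Il1b, Il1r2, Osm, Il1rn, Tnf, Il1a, Il1rap, Il10, Il23a and Il6. In that order, the neighbours Il1rn and Tnf, Il1a and Il1rap, Il1rap and Il10, and Il10 and Il23a overlapped between libraries. In PyMT-Cxcr2-/- TANs, Osm was at 356 ± 33.3 RPKM (rank 78) and Il1a lay behind Il1rap and Il10, at 20.4 ± 6.13 RPKM, but the neighbours Tnf and Il1rap, Il1rap and Il10, and Il10 and Il1a overlapped. In WT BM neutrophils the order began with Il1b, Il1r2 and Osm, of which Il1r2 (213 ± 49.7 RPKM) and Osm (207 ± 33.1 RPKM) overlapped, and it ended with Il23a, Il10 and Il6, which overlapped too.

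Pathway partners were also read between TANs and bone marrow. Over all genes tested, 30.1% were higher and 23.2% lower in PyMT TANs, and 34.4% and 25.1% in PyMT-Cxcr2-/- TANs. Of the 13 genes of the TNF pathway, 7 were higher in each TAN group, and 1 was lower in PyMT TANs. These included Tnfaip3, a brake on TNF and IL-1 signalling (log2 fold change 5.15 and 5.31), Traf1, a receptor adaptor (5.71 and 5.68), and the receptor Tnfrsf1b (2.45 and 2.73). Of the 14 genes of IL-1 maturation and release, 8 were higher in PyMT TANs and 7 in PyMT-Cxcr2-/- TANs, while 6 and 5 were lower. Nlrp3, the sensor of an inflammasome that activates Casp1, was higher (log2 fold change 2.08 and 2.17), and Elane, a granule protease, was lower (-5.43 and -5.38). Casp1, the protease that matures IL-1β, was at 26.9 to 31.8 CPM in PyMT TANs, 29.7 to 36.2 CPM in PyMT-Cxcr2-/- TANs and 46.8 to 52.3 CPM in WT BM neutrophils. It passed as lower in PyMT TANs (log2 fold change -0.67, SE 0.12, adjusted p = 5.4e-04). Its log2 fold change in the PyMT-Cxcr2-/- group, -0.47 (SE 0.10, adjusted p = 6.2e-04), was under the 1.5-fold threshold, and neither TAN group overlapped with bone marrow. The PyMT call was kept in 7 of 12 alternatives and was lost, for example, after adjustment for GC content and length (-0.35, adjusted p = 0.14).

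Of 14 genes of IL-1 signalling, 3 were higher in each TAN group, while 4 were lower in PyMT TANs and 2 in PyMT-Cxcr2-/- TANs. These counts are near or under the shares over all genes given above. The list medians were 0.03 and -0.03, beside 0.09 for all genes. Map3k8, a kinase below the IL-1 and TNF receptors, was higher in each (log2 fold change 2.33 and 1.86), and Irak4, the kinase recruited first to the IL-1 receptor, was lower (-1.14 and -0.70). Of 12 other IL-1 family genes tested, 2 were higher in each TAN group, Il18 (1.67 and 1.42) and Il1rl2, the IL-36 receptor (2.95 and 2.44), and 5 and 3 were lower, among them Il18bp, a soluble trap for IL-18 (-1.85 and -1.55). In the IL-6 family, 8 of 12 were higher and 1 lower in each TAN group, among them Lif (4.34 and 5.03). Il10ra, the receptor chain specific to IL-10, was at 448 to 509 CPM in PyMT TANs, 449.6 to 579.9 CPM in PyMT-Cxcr2-/- TANs and 39.3 to 72.3 CPM in WT BM neutrophils. It was therefore higher in both TAN groups (log2 fold change 3.26, adjusted p = 1.9e-07, and 3.44, adjusted p = 7.0e-09).

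Genes with the most similar pattern over the 12 libraries were found by Pearson's r of log2 CPM among 11091 genes, as a description that largely follows the difference between TANs and bone marrow, since libraries share their group and depth. For Il1b these were Tnfaip3 (r = 0.998), Traf1 (0.997) and Nr4a3 (0.997), and for Il1r2 they were Ets2 (0.991), Cxcl2 (0.987) and Traf1 (0.987). Wdr55, Otulinl and Tubb6 were closest to Il1a (0.992 to 0.995), Skil, Slc31a1 and Atf6 to Il1rap (0.992 to 0.994), and Cd69, A630081D01Rik and Gm14023, the opposite-strand neighbour of Il1a, to Il23a (0.988 to 0.993). Il10 was closest to Donson, Gm47088 and Gm43912 (0.986 to 0.991), and Tnf to Ptges3-ps, Ifi35 and Med12l (0.943 to 0.956). The closest genes to Osm were Rbm47 (0.879), Fos (0.873) and Fosl1 (0.871), whose values were lower than those for any other member with a level high enough. When the group means were removed first, so that only differences within groups remained, Osm was closest to Fosb (0.889), Ggn (0.889) and Ccl4 (0.864). For Il1rn, Olr1 and Clec7a were among the closest 3 genes in both ways (0.976 and 0.967 for levels, 0.902 and 0.885 within groups). Within groups, the members most alike were Il1b and Il23a (r = 0.85), and Tnf and Il10 had an r of -0.14. Il6 was below the level needed.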

How the data were processed

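Neutrophils (CD45+ CD11b+ Ly6G+ F4/80-) were sorted after CD11b enrichment, and RNA-seq libraries were made from rRNA-depleted RNA with a directional kit. The authors aligned trimmed reads to mm10 with STAR and deposited raw counts per gene from HTSeq. Their version numbers, strand setting and annotation release are not given in the sources used here. Of 55335 genes, 55154 were matched to GENCODE M21. Reads that HTSeq gave to no gene stayed out of library sizes (46.3% to 60.5% of the total).

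Each comparison was fitted on its 2 groups of 4 libraries with edgeR 4.0.16 in R 4.3.3 (TMM, filterByExpr, robust quasi-likelihood test, Benjamini-Hochberg adjustment over all genes tested). The SE was taken as the absolute log2 fold change over the square root of the F statistic. CPM use TMM factors over the 12 libraries, and fold changes come from the fits. The labels number the replicates, and each was taken as a separate mouse. The paper gives 4 animals per group where it compares the TANs. Pairs of replicates within a group differed by more than sampling noise (chi-square per degree of freedom 24.9 to 150.5). The labels give no batch.

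Alternatives were other normalization factors, filters and thresholds, no robust estimation, a replicate block, an adjustment for GC content and length, 12 libraries in one fit, DESeq2 1.42.0 (the study's tool), and each library left out. The main edgeR test, DESeq2 and the GC and length adjustment were also run on simulated counts for the comparison of the TAN groups. The other alternatives and the comparisons with bone marrow were not simulated. The 10 members and all gene lists were chosen with earlier results of these data known, so they are no independent evidence. Other genes were named by a rule: from each list at most 3 per direction and comparison past the thresholds with the largest change and an average log2 CPM of at least 1, receptors and partners of the members, and the 3 genes most like each member. Adgre1, Il1bos and Gm genes, and examples from the lists outside this rule, were named after their values were seen. Promoter sequences are from RefSeq (GRCm38.p6).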

Additional observations from a re-analysis of the deposited data

Results flagged for a closer look

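In groups of 4 libraries, a library was singled out where its gap to the nearest other library as a share of the group's range exceeded Dixon's critical value. This was so in 3 of 29 groups of values, and chance alone gives about 1 in 20. Tnf in PyMT TAN replicate 3 was at 231 CPM, while the other 3 libraries were between 123 and 140.2 CPM. Il6 in PyMT-Cxcr2-/- TAN replicate 1 was at 1.21 CPM, above 0.205 to 0.329 CPM in the other 3. Il10 in WT BM replicate 4 was at 0.308 CPM (11 counts), and the other 3 libraries had a count of 0.

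Of 4 genes on the strand opposite to members, outside the main comparisons, 3 were above bone marrow in all 8 TAN libraries. The lowest TAN library had 27.9 CPM of Il1bos (highest WT BM library 11.5 CPM), 9.21 CPM of Gm14023 (0.813 CPM) and 1.16 CPM of Gm20319, which lies opposite to Il1rap (0.495 CPM). Il1bos and Gm14023 were also lower in PyMT-Cxcr2-/- TANs than in PyMT TANs, at 36.2 ± 7.59 against 74.9 ± 8.43 CPM and 12.8 ± 2.81 against 29.9 ± 2.52 CPM (SD, n = 4). The fourth, Gm16894, lies opposite to Il1r2 and was at 431 CPM in bone marrow. It passed as lower with edgeR in PyMT TANs (239.6 CPM, log2 fold change -0.78, adjusted p = 0.012), where the groups overlapped. In PyMT-Cxcr2-/- TANs it passed too (261 CPM, -0.59, adjusted p = 0.0081). The PyMT call was kept in 9 of 12 alternatives, the PyMT-Cxcr2-/- call in 3 of 12 and in 4 of 8 fits that left out a library. Both were lost after adjustment for GC content and length (-0.20, adjusted p = 0.46, and -0.15, adjusted p = 0.39). How much of these genes' reads come from the overlapping member was not tested.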

How the results depend on the processing

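Between the TAN groups, 3 members passed the thresholds. The number was 0 at a threshold of 1.5 on the log2 scale, 0 with a replicate block and 0 with GC and length adjustment plus the block, 2 to 4 in the other fits, and 0 to 3 when a library was left out. The replicate numbers did not pair the libraries (correlation of deviations -0.205 to 0.084), so the block is not a paired design. It reduced the calls over all genes from 365 to 13 and changed no count of members against bone marrow. Counts over all genes between the TAN groups were 76 at the log2 threshold of 1.5, 159 against a 1.2-fold change, 594 without the filter, 219 with the GC and length adjustment, 8 with that and the block, 886 in one fit of 12 libraries and 1034 with DESeq2. The counts of members against bone marrow were 7 to 9 in PyMT TANs (8 when a library was left out) and 6 to 10 in PyMT-Cxcr2-/- TANs (8 or 9). Directions turned only for differences that did not pass. Between the TAN groups, Il1r2 was at 0.00 with DESeq2 factors and without the filter and at 0.01 with DESeq2, and Il6 was at 0.63 with the block and 0.73 with the block and adjustment. With a library left out, log2 fold changes ranged from -0.17 to 0.08 for Il1r2, from -1.26 to 0.30 for Il6, from -0.43 to 0.10 for Il10 and from -0.14 to 0.01 for Il1b. Osm against bone marrow in PyMT TANs was 0.02 with upper quartile factors and 0.04 with the stricter filter. Without scaling by length, the log2 ratio of Il1rn to Il1b was -1.19 in WT BM neutrophils, -3.62 in PyMT TANs and -3.69 in PyMT-Cxcr2-/- TANs, and with length and a library left out it was -2.79 to -2.65, -5.27 to -5.05 and -5.25 to -5.20. Levels under other scaling stayed within the SD in 52 of 60 values. Depth limits Il6 and, in bone marrow, Il10 and Il23a. The cause of the lost calls was not tested.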
